A study of Mus musculus with 2 samples.

Results

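CpG methylation was examined at 10 genes of meiotic chromosome structure in haploid embryonic stem cells of the mouse, in 2 lines that have 1 library each. The genes are Sycp1, Sycp2, Sycp3, Syce1, Syce2, Hormad1, Stag3, Smc1b, Rec8 and Stra8, taken by name at their RefSeq positions in mm10. Every CpG from 2 kb outside the gene start to 2 kb outside the gene end was used if it had at least 10 reads in both libraries, which gave 249 of the 1030368 CpGs compared in the series. The A129-2 line has a 129Sv strain background and the AOS-14 line a C57BL/6 background. Both were derived by cell sorting from AG-haploid embryos, taken here as androgenetic, so that the chromosomes are of paternal origin. The ploidy of the sequenced cells was not examined here. Each strain is represented by a single line, and line, strain and library cannot be told apart. Levels are methylated reads over all reads of a CpG, in percent, and differences are A129-2 minus AOS-14 in percentage points.

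During meiotic prophase homologous chromosomes pair along a protein axis and are joined by the synaptonemal complex. SYCP2 and SYCP3 form the axial and lateral elements, SYCP1 the transverse filaments, SYCE1 and SYCE2 parts of the central element, and HORMAD1 binds unsynapsed axes. REC8, STAG3 and SMC1B are meiotic subunits of cohesin, the ring that holds sister chromatids, and STRA8 is induced by retinoic acid and is needed for meiotic entry. Outside germ cells many such genes are silenced, and in mouse embryonic stem cells a Polycomb complex with E2F6 and the MGA-MAX pair, which bind GCGGGAA-like and CACGTG sequences, as well as DNA methylation, takes part in that silencing.

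The promoter sequences of 4 members are shown because their compared CpGs lie within or next to them and cover the range of levels found. Sycp1 and Hormad1 had intermediate levels that were close in both lines, Sycp3 had the highest level of the tested members, and Smc1b was among the lowest. Sequences are from RefSeq on GRCm38.p6, run 5′ to 3′ on the strand of the gene from 250 bases before to 50 bases after its start, and capitals mark the CpGs compared in both libraries. The intervals are chr3:102936051-102936350 on the minus strand for Sycp1, chr10:88459337-88459636 on the plus strand for Sycp3, chr3:95559427-95559726 on the plus strand for Hormad1 and chr15:85131908-85132207 on the minus strand for Smc1b.
Sycp1: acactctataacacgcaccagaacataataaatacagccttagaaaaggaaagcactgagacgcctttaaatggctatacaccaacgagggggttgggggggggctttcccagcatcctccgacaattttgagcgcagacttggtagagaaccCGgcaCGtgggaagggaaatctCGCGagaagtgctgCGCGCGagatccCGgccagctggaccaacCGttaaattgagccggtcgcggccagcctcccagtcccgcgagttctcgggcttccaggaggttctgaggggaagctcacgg
Sycp3: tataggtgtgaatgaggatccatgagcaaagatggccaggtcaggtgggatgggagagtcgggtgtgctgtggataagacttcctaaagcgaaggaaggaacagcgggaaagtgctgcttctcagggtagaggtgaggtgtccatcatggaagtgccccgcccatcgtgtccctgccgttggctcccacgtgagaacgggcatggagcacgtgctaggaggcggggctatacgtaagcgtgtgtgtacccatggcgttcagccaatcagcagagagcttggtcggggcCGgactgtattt
Hormad1: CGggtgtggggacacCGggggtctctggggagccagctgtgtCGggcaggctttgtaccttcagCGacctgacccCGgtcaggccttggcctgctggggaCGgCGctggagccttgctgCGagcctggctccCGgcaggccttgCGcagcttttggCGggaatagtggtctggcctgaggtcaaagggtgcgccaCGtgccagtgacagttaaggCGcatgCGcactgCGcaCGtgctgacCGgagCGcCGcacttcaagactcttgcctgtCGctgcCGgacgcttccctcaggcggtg
Smc1b: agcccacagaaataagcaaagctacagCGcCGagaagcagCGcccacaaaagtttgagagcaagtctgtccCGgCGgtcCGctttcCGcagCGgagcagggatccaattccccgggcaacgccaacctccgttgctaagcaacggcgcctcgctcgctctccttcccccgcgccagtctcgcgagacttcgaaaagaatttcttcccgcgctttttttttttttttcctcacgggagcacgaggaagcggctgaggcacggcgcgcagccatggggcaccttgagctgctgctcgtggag

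These windows held 21 CG pairs in Sycp1, of which 9 were compared, 15 in Sycp3 with 1 compared, 24 in Hormad1 with 21 compared and 29 in Smc1b with 8 compared. The E-box CACGTG, searched on both strands, occurs 1 time each in Sycp1 and Stag3, 2 times each in Sycp3 and Hormad1, and not in the windows of the other 6 members. This motif is present in 7.24% of the 27025 RefSeq promoter windows of this length. The letters GCGGGAA, on either strand, occur in Sycp3, Hormad1, Stag3 and Smc1b and in 4.66% of all such windows. For Stag3, Stra8, Rec8 and Sycp2 these windows stand at a start inside the gene span. Positions of CpGs are those of the plus-strand C for every gene. A match of letters is a description and does not show binding.

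Capture and depth set what could be compared. The A129-2 library held 153035567 reads at 1699405 listed CpGs and the AOS-14 library 178315194 reads at 1819756. The compared CpGs of the 10 genes had 102 reads at the median in A129-2 and 100 in AOS-14, against 79 and 97 over all compared CpGs. Their number per gene ran from 3 at Rec8 and 4 at Sycp2 to 44 at Syce2 and 52 at Stag3. Of them 108 lay within 500 bp of a gene start, in 6 members, while Syce1, Rec8 and Stra8 had none within the promoter window. The table of genes gives no exons, so positions are stated as distances from the gene start and not as exonic or intronic. As a check of cell identity, 4 of the 8 pluripotency genes had a tested promoter, and their median level was 1.83% for A129-2 and 3.33% for AOS-14, while the feeder fibroblast genes Fn1 and Vim, the 2 tested of 5, had 6.07% and 1.74% in A129-2, against 4.11% and 2.54% in AOS-14. By summed reads Fn1 had 3.11% in A129-2 and 3.14% in AOS-14, so its gap in the mean depends on the weighting. Methylation is not expression, so these levels do not show which cells were present.

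The cytosine context moved with the level at these genes, as it did in the whole series. The 82 member CpGs inside CCGG had a mean of 19.4% in A129-2 and 27.1% in AOS-14, and the 167 others 7.23% and 10.1%. Over all compared CpGs the means inside CCGG were 18.9% and 27.9%, and elsewhere 4.74% and 8.49%. The part of the CCGG context in the levels below was not tested, and values without it are given where they bear on a result.

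The 10 genes together were methylated at a low level in both lines, and their CpGs averaged 11.2% in A129-2 and 15.7% in AOS-14. Over all compared CpGs the means were 9.48% and 15.0%. Levels of 50% or more were found at 3 member CpGs in A129-2 and at 11 in AOS-14. In a bulk library a level between none and full is an average over cells, and a few fully methylated cells cannot be told apart from many cells with scattered methylation. Of the 249 CpGs, 158 (63.5%) were lower in A129-2, 71 (28.5%) higher and 20 equal, while 62.4% of all compared CpGs were lower and 20.3% higher.

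Pooled over member CpGs, the lines were closer near the gene starts than in the gene bodies. The same held over all genes, where the median difference was -0.724 points within 500 bp of the start and -8.85 points in the body. Among the members the difference between zones was not tested, and the zones pool different genes. CpGs near starts came from 6 members and body CpGs from 4, with 43 of 66 in Stag3. In Sycp1 the difference was 0.760 points near the start and -1.55 points in the body, or 2.89 and 0.689 points by summed reads. In Stag3 it was -2.69 and -5.46 points, or -3.59 and -4.05 points by summed reads. Of the 108 CpGs within 500 bp of a start, 54 were lower in A129-2, with means of 9.54% in A129-2 and 11.1% in AOS-14. In the gene bodies beyond 2 kb, 48 of 66 CpGs were lower in A129-2, with means of 14.6% and 21.7%. All 6 CpGs in the flanks past the gene ends were lower in A129-2, with means of 29.6% and 40.5%. No member had the 5 CpGs there that the test needed. Over all genes with that many, the flank had median levels of 5.64% and 7.54% and a median difference of -1.83 points, so units and levels are unlike. Of all compared CpGs, in any zone, 62.4% were lower in A129-2, and shares by zone were not counted.

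The promoter window took in 1 kb before the gene start and 0.5 kb after it, and windows with at least 5 compared CpGs were tested on their summed reads with Fisher's exact test, adjusted by the Benjamini-Hochberg method over 14492 gene promoters. A read that spans several CpGs is counted at each of them, and reads from the same library share a culture, so these p-values are too small, and the exact 95% binomial intervals too narrow, where CpGs share reads; both cover counting error only and neither has a replicate check. PCR reads without molecular identifiers are not independent molecules either. Of the 6 members tested, 2 (Sycp3 and Stag3) had lower levels in A129-2 with an adjusted p under 0.05, as had 30.0% of all promoters. Sycp1 was higher in A129-2, as were 0.787% of all promoters. At 10 points or more 1 member, Sycp3, was lower, beside 4.19% of all promoters, and at 25 points 0 were, beside 0.455%. The Sycp3 mean passed 10 points only with the thinly read CpG 900 bp before the gene; it was -9.41 points without that CpG, -9.39 points outside CCGG and -7.29 points by summed reads, each still past the adjusted threshold. Hormad1, Syce2 and Smc1b did not pass. The median of the 6 was 9.02% in A129-2 and 10.4% in AOS-14, against 2.88% and 3.60% for all tested promoters, and the median difference was 0.146 points, against -0.762 points. In mean level 2 of the 6 were lower in A129-2, as were 84.1% of all promoters. Counted over 500 bp either side of the start, the same 2 genes were lower and Sycp1 higher, beside 25.3% and 0.669% of all genes.

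**Figure D1:**
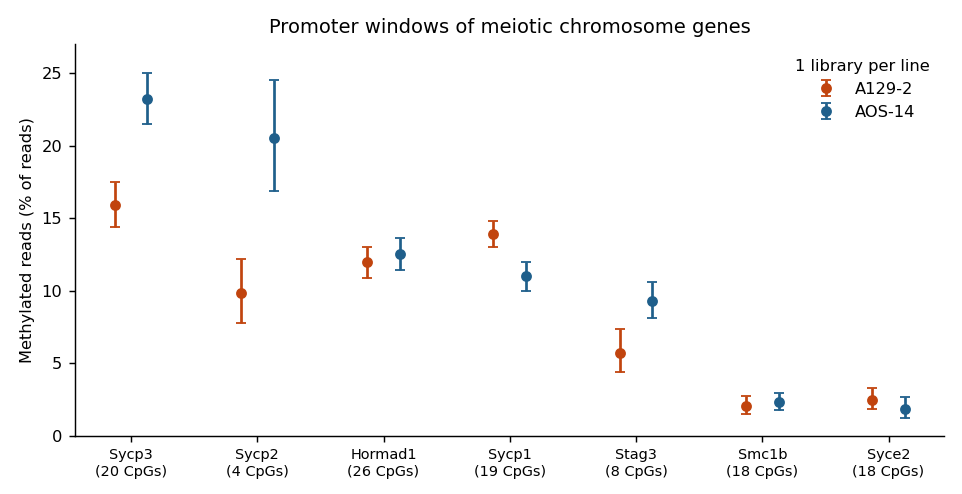
Methylated reads as a percentage of all reads in the promoter window of each member with a compared CpG, in A129-2 (left of each pair) and AOS-14 (right); bars are exact 95% binomial intervals of 1 library each, covering counting error only. Sycp3, Sycp2 and Stag3 stand lower in A129-2, Sycp1 stands higher, Hormad1 is close in both lines, and Smc1b and Syce2 are near 2% in both lines. Sycp2 has 4 CpGs and was not tested.

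By summed reads, the order in A129-2 was Sycp3 at 15.9% (14.4 to 17.5), Sycp1 at 13.9% (13 to 14.8), Hormad1 at 12% (10.9 to 13), Stag3 at 5.73% (4.38 to 7.35), Syce2 at 2.48% (1.84 to 3.27) and Smc1b at 2.07% (1.5 to 2.77). In AOS-14 it was Sycp3 at 23.2% (21.5 to 25), Hormad1 at 12.5% (11.4 to 13.6), Sycp1 at 11% (10 to 12), Stag3 at 9.32% (8.14 to 10.6), Smc1b at 2.32% (1.79 to 2.95) and Syce2 at 1.83% (1.21 to 2.65). The intervals of Sycp3, Sycp1 and Hormad1 each overlap with the next in A129-2, those of Hormad1, Sycp1 and Stag3 each with the next in AOS-14, and those of Syce2 and Smc1b in both, so these neighbours in the order are not separated. Sycp2, not tested, had 9.82% (7.77 to 12.2) in A129-2 and 20.5% (16.9 to 24.5) in AOS-14.

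Promoters of like level give the scale for the differences. Among the 775 promoters whose mean over both lines was from 10% to 20%, the median difference was -5.40 points, and Sycp1 and Hormad1, which lie in this range, differed by 0.760 and 0.0316 points, or by 2.89 and -0.547 points by summed reads. Among the 690 promoters at 20% or more the median was -13.4 points, and Sycp3 differed by -11.5 points with the CpG 900 bp before the gene and by -9.41 points without it. By summed reads it had 15.9% in A129-2 and 23.2% in AOS-14, so its place just above 20% also depends on the weighting. For the 11303 promoters under 5%, where Syce2 and Smc1b lie, the median was -0.641 points. Among the 1724 promoters from 5% to 10% it was -1.46 points. Stag3, in this range, differed by -2.69 points at the beginning of its span, or by -3.59 points by summed reads. With the start of the promoter table Stag3 differed by -3.94 points, or by -0.777 points by summed reads. These medians describe the libraries and are no test of the members.

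Sycp3, whose product forms the axial and lateral elements, had 20 compared CpGs in its promoter window on chromosome 10 (88458687 to 88459966), with means of 17.5% in A129-2 and 29.1% in AOS-14 (345 of 2168 and 519 of 2237 reads methylated, adjusted p = 2.97e-08 in the exact test). All but 1 of them lie in a stretch from 38 to 379 bp inside the gene, and the lines differed along it. From 38 to 167 bp, 8 CpGs had means of 16.9% in A129-2 and 16.8% in AOS-14, and 4 were lower and 4 higher in A129-2. From 182 to 379 bp, 11 CpGs had means of 18.5% and 34.8%, and all 11 were lower in A129-2. The level in AOS-14 was thus higher deeper in the gene, while that in A129-2 was close in both stretches. The division at this point was chosen after the values were seen and is not tested.

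Single CpGs show the same course. The CpG nearest the start, at 38 bp, had 27% in A129-2 (20 of 74 reads, interval 17.4 to 38.6) and 17.5% in AOS-14 (17 of 97, 10.6 to 26.6), and the next, at 85 bp, 12.6% and 12.2%. At 216 bp the levels were 6.99% in A129-2 (19 of 272 reads, 4.26 to 10.7) and 21% in AOS-14 (43 of 205, 15.6 to 27.2), with an adjusted p of 0.000175 in the exact test, adjusted over all compared CpGs. The CpGs at 200 and 239 bp had 19.5% and 12.8% in A129-2, against 36.4% and 25.5% in AOS-14. At 282 bp the level was highest in both lines, with 40.5% in A129-2 (15 of 37 reads) and 64.0% in AOS-14 (32 of 50). Outside CCGG, the 5 CpGs of the stretch nearer the start had 12% and 12.3%, and the 8 CpGs farther in 17.1% and 32.2%. The last CpGs rest on fewer reads, between 27 and 52 per library from 266 bp on. The lone CpG 900 bp before the gene had 2 of 17 reads methylated in A129-2 and 7 of 11 in AOS-14, and it did not pass the test (exact test, adjusted p = 0.0731).

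Sycp2, the partner of SYCP3 in the axis, was covered at 4 CpGs between 575 and 592 bp before its gene start on chromosome 2 (178408351 to 178408368). Their levels were 7.25%, 5.31%, 14% and 15.2% in A129-2, against 17.1%, 11%, 26% and 33.8% in AOS-14, nearest to farthest. All 4 had lower values in A129-2, the farthest at an adjusted p of 0.046 in the exact test, and their means were 10.4% and 22.0%. With fewer than 5 CpGs the window was not tested; with a minimum of 3 it was lower in A129-2 at an adjusted p of 6.77e-06 in the exact test. The 4 CpGs lie closer together than the 50 bp of a read. Shared reads can thus be counted at each of them, and the 4 values are not independent. In this window 4 CpGs were listed in A129-2 and 20 in AOS-14, where the shared 4 held 454 of 517 reads.

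Sycp1, which encodes the transverse filament, had 19 compared CpGs on chromosome 3 (102935816 to 102936196), with means of 12.8% in A129-2 and 12.1% in AOS-14. By summed reads 746 of 5371 were methylated in A129-2 (13.9%) and 416 of 3782 in AOS-14 (11%), and this small difference passed the test (exact test, adjusted p = 0.000454), with 11 CpGs higher and 8 lower in A129-2. The CpGs fell into a group before the start and a group after it. The 9 CpGs from 96 to 31 bp before the start had means of 18.3% in A129-2 and 15.4% in AOS-14, and the 10 CpGs from 217 to 284 bp after it 7.95% and 9.11%. This later group had 6 CpGs higher and 4 lower in A129-2. By summed reads it had 7.76% in A129-2 and 6.85% in AOS-14, and outside CCGG means of 6.63% and 4.91%. Its thinly read CpG at 217 bp, in CCGG, had 2 of 22 reads methylated in A129-2 and 8 of 26 in AOS-14. Both lines had the higher mean before the start.

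In the printed Sycp1 sequence, the 3 neighbouring CpGs at 60, 58 and 56 bp before the start, in the run cgcgcg, were the highest of the group in A129-2, with 33% (126 of 382 reads), 24.4% (92 of 377) and 27.6% (109 of 395). In AOS-14 they had 27.4% (61 of 223 reads), 17.1% (37 of 216) and 17.4% (41 of 235). All 3 were higher in A129-2, and the last passed the test by itself (10.1 points, adjusted p = 0.0318 in the exact test). The CpG in the E-box, 91 bp before the start, was the lowest in both lines, at 3.30% in A129-2 (13 of 394 reads, 1.77 to 5.58) and 1.27% in AOS-14 (3 of 237, 0.262 to 3.65). The next CpG, 74 bp before the start, had 11.7% and 12.7%. The CpG nearest the start, at 31 bp before it, had 7 of 48 reads methylated in A129-2 and 2 of 19 in AOS-14. Farther in, from 597 to 627 bp, 5 CpGs had means of 5.19% and 4.79%.

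The Sycp1 body did not pass the test. Over 11 CpGs in 3 clusters its means were 24.6% in A129-2 and 26.1% in AOS-14 (exact test, adjusted p = 0.621), while 88.5% of 11443 tested gene bodies were lower in A129-2 and 0.472% higher. Of the 3 member bodies tested, those of Syce1 and Stag3 were lower. From 49247 to 49295 bp inside the gene, 4 CpGs (102886805 to 102886853) had means of 14.2% in A129-2 and 24.1% in AOS-14, and all 4 values were lower, though none passed singly. From 69571 to 69865 bp inside, 4 CpGs had 13.4% and 12.7%, among them a CpG at 11.7% in A129-2 (67 of 572 reads) and 4.11% in AOS-14 (15 of 365), higher in A129-2 at an adjusted p of 0.00074 in the exact test. Near the far end of the gene 3 CpGs (102828567 to 102828578) were the most methylated of Sycp1. They had 62.7%, 57.1% and 40.5% in A129-2, against 73.8%, 36.4% and 30.3% in AOS-14, and the middle CpG was higher in A129-2 by 20.7 points (125 of 219 and 40 of 110 reads, adjusted p = 0.00543 in the exact test). Without CpGs in CCGG the body was higher in A129-2 by 3.26 points, at an adjusted p of 0.00135 in the exact test.

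**Figure D2:**
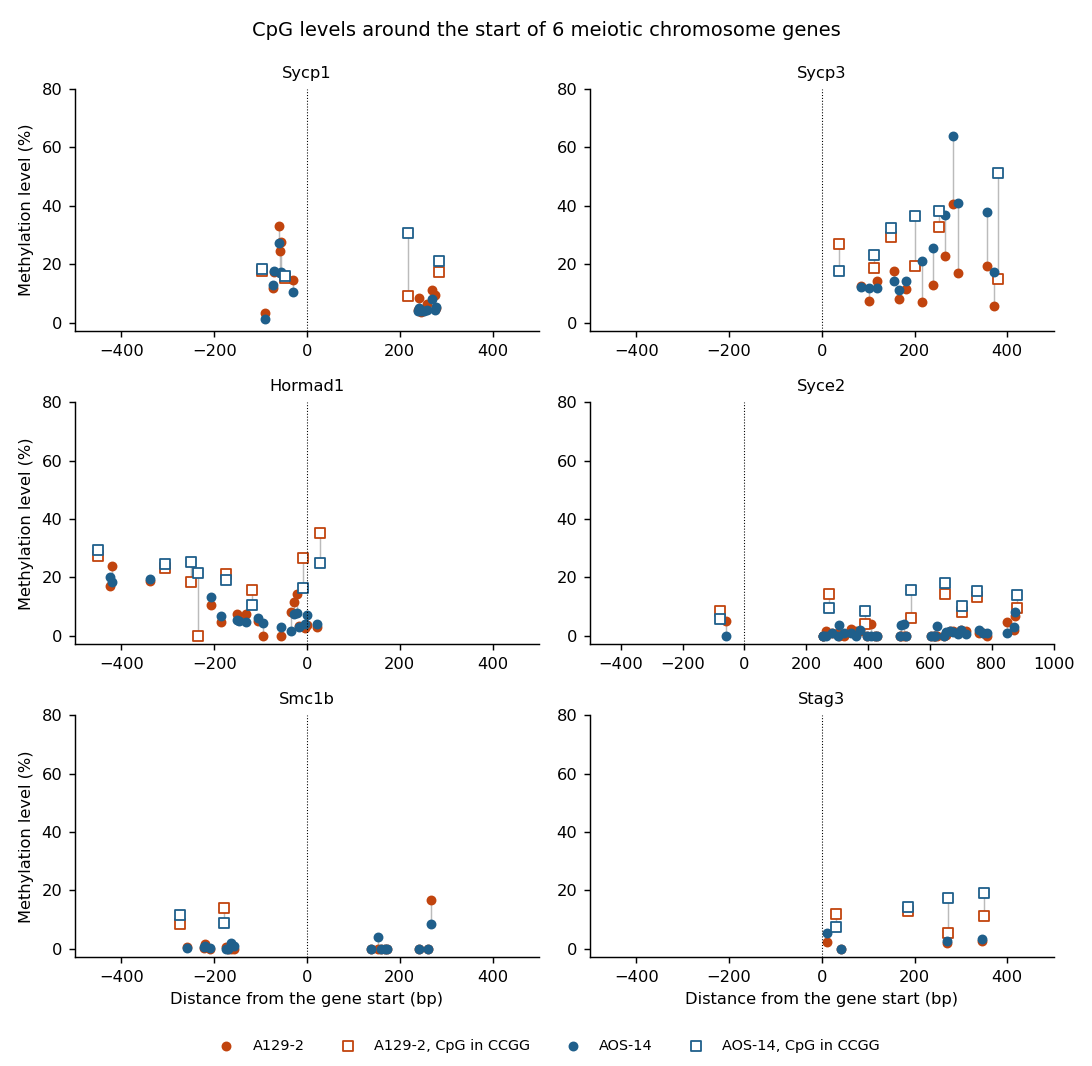
Methylation level in percent of each compared CpG against its distance from the gene start in bp, for the 6 members with CpGs within 500 bp of the start; grey lines join the A129-2 and AOS-14 values of a CpG, and open squares mark CpGs inside CCGG. In Sycp3 the values of A129-2 and AOS-14 part from about 200 bp on, in Sycp1 and Hormad1 most stay close, and in Syce2 and Smc1b most CpGs outside CCGG are near 0%.

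Hormad1, which encodes an axis protein of unsynapsed chromosomes, had close levels in both lines. Over 26 CpGs of its promoter window on chromosome 3 (95559227 to 95559705) the means were 12.1% in A129-2 and 12% in AOS-14, with 448 of 3748 and 438 of 3504 reads methylated (exact test, adjusted p = 0.638). Pooled over both contexts, the level declined toward the start. From 450 to 175 bp before it, 10 CpGs had means of 16.4% in A129-2 and 19.7% in AOS-14, and from 150 bp before to 28 bp after it 16 CpGs had 9.31% and 7.21%. Outside CCGG these means were 14.9% and 15.5% for 5 CpGs, and 5.51% and 4.89% for 13 CpGs, so the decline was present there too. Inside CCGG the 5 CpGs farther out had 18% and 23.9%, and the 3 CpGs at the start 25.8% and 17.3%. In that context the mean was thus higher at the start in A129-2 and lower in AOS-14.

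The 3 CpGs inside motifs of the printed Hormad1 sequence were low in both lines. The CpG of GCGGGAA, 94 bp before the start, had 0 of 63 reads methylated in A129-2 (upper bound 5.69%) and 3 of 70 in AOS-14 (4.29%, 0.893 to 12). The E-box CpG at 55 bp before the start had 0 of 62 in A129-2 (upper bound 5.78%) and 2 of 64 in AOS-14 (3.12%), and that at 18 bp before it 3.17% in A129-2 and 3.08% in AOS-14. Other CpGs outside CCGG near the start had like levels, such as 2.69% and 4.08% at 4 bp before it, so low values were also found outside these motifs. The highest CpG of the window in A129-2 was 28 bp after the start, in CCGG, with 35.1% against 25% in AOS-14. The highest in AOS-14 was 450 bp before it, also in CCGG, at 27.3% and 29.3%. The nearest CpG to the start, at 1 bp before it, had 3.76% and 7.07%. Farther out, at 1434 and 1373 bp before the start, levels were 31.6% and 39.3% in A129-2, against 31.4% and 56.9% in AOS-14, and the nearer of this pair passed the test (exact test, adjusted p = 0.00268).

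Syce2, a central element gene, had low levels at its start. On chromosome 8 (84872031 to 84872540) 18 CpGs had means of 2.46% in A129-2 and 1.75% in AOS-14 (exact test, adjusted p = 0.380), and 26 CpGs of the downstream edge, the zone past 500 bp, up to 882 bp inside, had 2.88% and 4.12% (exact test, adjusted p = 0.257). The 36 CpGs of the gene outside CCGG had means of 1.14% and 1.18%, and the 8 inside CCGG 9.79% and 12%. In A129-2 34.9% of all tested promoters were lower than Syce2, and in AOS-14 2.86% were. The CpG nearest the start, 60 bp before it, had 5 of 103 reads methylated in A129-2 and 0 of 130 in AOS-14 (upper bound 2.80%). The highest CpG of AOS-14, 649 bp inside, had 14.4% and 18%.

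Syce1, the other central element gene, had no compared CpG near its start, and its body differed most among the members tested. Over 11 CpGs of chromosome 7 (140777908 to 140784922) the means were 22.9% in A129-2 and 44.2% in AOS-14, a difference of -21.3 points (432 of 1874 and 1045 of 2535 reads, adjusted p = 1.37e-36 in the exact test), and all 11 CpGs were lower. The medians over all tested gene bodies were 15.6% and 25.4%, with a median difference of -8.85 points. In the last 1 kb of the gene, 7 CpGs (140777908 to 140778064) had 21.6%, 18.2%, 20.9%, 44%, 31.3%, 11.3% and 11.4% in A129-2, against 37.1%, 39.3%, 43.1%, 61.5%, 47.8%, 26.5% and 22.1% in AOS-14, from 9790 to 9946 bp inside the gene. The fourth of them, at 9850 bp, was the highest of the 7 in both lines. Each was lower in A129-2, and 6 of the 7 passed the test singly. From 2932 to 3082 bp inside, where the gene model Gm29799 overlaps, 4 thinly covered CpGs had means of 23.3% and 52.3%, from 54 and 78 reads. At 1 of them 0 of 16 reads were methylated in A129-2 (upper bound 20.6%) and 11 of 24 in AOS-14 (exact test, adjusted p = 0.0122).

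Of the cohesin genes, Smc1b had low levels on both sides of its start. Its 18 CpGs on chromosome 15 (85131690 to 85132231) had means of 2.36% in A129-2 and 2.10% in AOS-14 (43 of 2080 and 64 of 2759 reads methylated, adjusted p = 0.746 in the exact test). The gene Ribc2 starts 103 bp away on the opposite strand, so the window covers both starts. In the printed sequence and just beyond it, 10 CpGs from 274 to 158 bp before the start had means of 2.57% and 2.54%. Outside CCGG 8 of these had 0.382% and 0.637%, while the CpGs in CCGG, at 274 and 178 bp, had 8.62% and 14.1% in A129-2, against 11.4% and 8.94% in AOS-14. Inside the gene 8 CpGs had 2.04% of 98 reads methylated in A129-2 and 1.49% of 201 reads in AOS-14. The nearest, at 138 bp, had 0 of 12 reads methylated in A129-2 and 0 of 26 in AOS-14, with upper bounds of 26.5% and 13.2%.

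Stag3 has starts in doubt, and both were examined. Its RefSeq span begins on chromosome 5 at 138272514, within the gene Gal3st4, while the promoter table places the start 7995 bp farther in, close to the start of Gpc2 on the opposite strand. At the beginning of the span 8 CpGs (138272525 to 138272863) had means of 5.98% in A129-2 and 8.68% in AOS-14 and were lower in A129-2 (58 of 1012 and 203 of 2177 reads, adjusted p = 0.00348 in the exact test). A single CpG in CCGG, 273 bp inside, at 5.33% in A129-2 (12 of 225 reads) and 17.4% in AOS-14 (85 of 488), was the CpG of this window that passed by itself, and the 4 CpGs outside CCGG had 1.73% and 2.82%. For the start given by the promoter table, 11 CpGs (138279708 to 138280059) had means of 3.08% and 7.02% and did not pass (exact test, adjusted p = 0.158). The 7 of them outside CCGG had 0.642% and 0.659%. With such starts 1 member, Sycp3, was lower and 1, Sycp1, higher, beside 30.3% and 0.733% of all promoters.

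Deeper in Stag3 the mean CpG level was higher than at the beginning of the span, and the lines differed there as well. By summed reads the body was not higher, with 5.14% in A129-2 and 9.19% in AOS-14, against 5.73% and 9.32% at the beginning of the span. The 43 CpGs of the body had means of 9.64% in A129-2 and 15.1% in AOS-14 (exact test, adjusted p = 1.15e-17). The difference was -5.46 points, or -4.05 by summed reads and -2.60 without CCGG. Over all tested gene bodies the median difference was -8.85 points, and 88.5% were lower in A129-2. Of those bodies, 22.9% in A129-2 and 23.6% in AOS-14 had a lower mean than Stag3. This body holds low CpGs at the front, within Gpc2, where 23 CpGs from 3059 to 3515 bp had 5.78% and 7.68%, and higher ones at the back. From 24985 to 34754 bp inside the gene, 9 CpGs (138297499 to 138307268) had means of 27.5% in A129-2, from 324 reads, and 43.9% in AOS-14, from 1115 reads, and all 9 values were lower in A129-2. The CpG at 34741 bp had 22.4% (15 of 67 reads) and 48.8% (105 of 215), and the CpG past the gene end, at 138313327, had 29.3% (55 of 188) and 55.3% (136 of 246). These both passed the test and 25 points (exact test, adjusted p = 0.00177 and 2.41e-06). The highest CpG of the body in both lines, at 34745 bp, had 42.4% and 59.7%. Depth at Stag3 was uneven, with a median of 71 reads per CpG in A129-2 and 172 in AOS-14.

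Rec8, the meiotic kleisin of cohesin, was seen only past its end, inside the neighbouring gene Ipo4. In its promoter window 0 CpGs were listed in A129-2 and 1 in AOS-14, from 1 read. The 3 compared CpGs on chromosome 14 (55626173 to 55626246) had 47.6%, 27.3% and 31.3% in A129-2, against 48.4%, 33.8% and 46.2% in AOS-14. None of the 3 passed the test, and the smallest adjusted p was 0.0509 in the exact test. Nothing can be said from them about the Rec8 promoter.

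The mitotic counterparts of these subunits had promoter levels near the medians of all promoters, 2.88% in A129-2 and 3.60% in AOS-14, or somewhat above them. Smc1a, the counterpart of Smc1b, had 4.50% in A129-2 and 5.49% in AOS-14, Smc3, the partner of both, 2.22% and 2.95%, and Stag2, a counterpart of Stag3, 3.41% and 3.04%. None of the 3 passed the test, beside 30.0% of all promoters lower in A129-2. Smc1b had a lower mean than Smc1a in both lines, and Stag3 at the beginning of its span had a higher mean than Stag2 in both. At the start given by the promoter table Stag3 had 3.08% in A129-2, lower than Stag2, and 7.02% in AOS-14, higher than Stag2. These differences between genes were not tested. Stag1 had no compared CpG in its window, and Rad21, the counterpart of Rec8, was not analysed here.

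Stra8, which is needed for meiotic entry, had a dense run of 31 compared CpGs from 1238 to 1612 bp inside its span on chromosome 6 (34921401 to 34921775), 453 bp or more after the start in the promoter table. The run was lower in A129-2, with means of 12.9% in A129-2 and 21.2% in AOS-14 (202 of 1757 and 199 of 990 reads methylated, adjusted p = 4.63e-08 in the exact test), and 28.1% of all tested downstream edges were lower and 0.532% higher. Of the 3 members tested in this zone, Stra8 alone passed. In it 26 CpGs were lower in A129-2 and 5 higher, with levels from 2.30% to 28.6% in A129-2 and from 5.88% to 45.5% in AOS-14, and 0 passed the test singly. Outside CCGG 19 CpGs had means of 9.4% and 18.4%. The positions recur, since 24 of the 29 CpGs that could have a partner had another compared CpG exactly 31 bp farther on, and 31 bp was the step shared by most of them. Even spacing of this kind is found in tandem repeats, where short reads can match more than 1 copy; the part of the spacing in the values was not tested. Elsewhere in Stra8, 1 CpG of the body had 12 of 45 reads methylated in A129-2 and 2 of 18 in AOS-14, and 2 CpGs past the gene end had means of 21% and 29.7%.

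**Figure D3:**
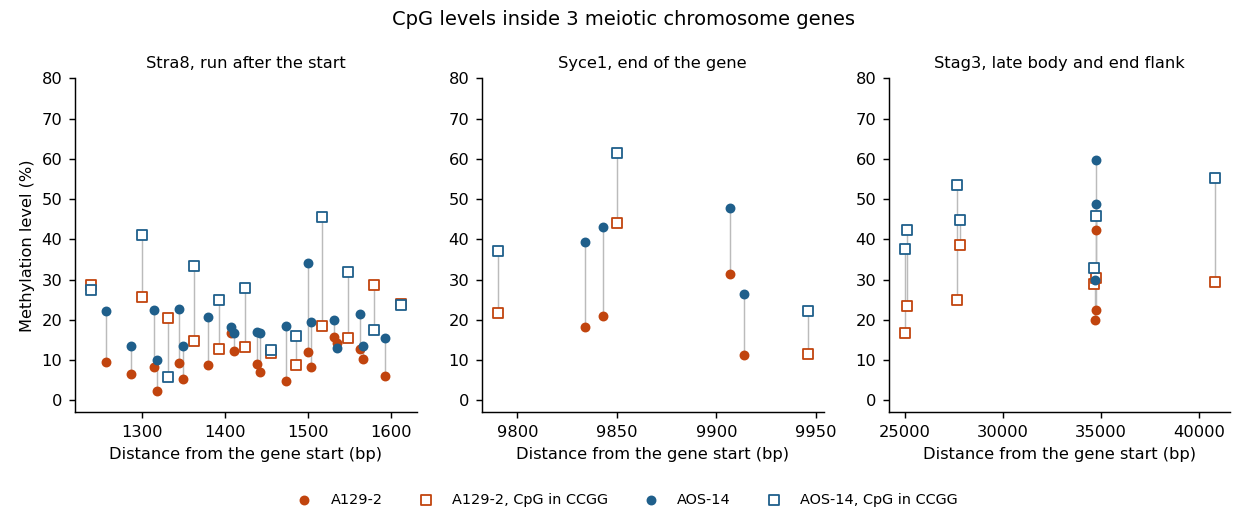
Methylation level in percent of each compared CpG against distance from the gene start in bp, in the dense run of Stra8, the end of Syce1, and the late body and end flank of Stag3; grey lines join the A129-2 and AOS-14 values, and open squares mark CpGs inside CCGG. All 7 CpGs of the Syce1 end and all 9 late body CpGs of Stag3 are lower in A129-2, as are 26 of 31 in Stra8.

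Across the 10 genes, 4 of 249 CpGs (1.61%) had an adjusted p under 0.05 and a level at least 25 points lower in A129-2, and 0 were higher, where 4.08% of all compared CpGs were lower and 0.0297% higher. The 4 CpGs were in Sycp3, Syce1, and, for the other two, in and past Stag3. With no minimum difference, 18 were lower and 3 higher, that is 7.23% and 1.20%, beside 12.9% and 0.154% of all compared CpGs. All 3 higher CpGs were in Sycp1. The largest called difference was at Syce1, described above, and in Sycp3 the CpG 379 bp inside the gene had 4 of 27 reads methylated in A129-2 (14.8%, 4.19 to 33.7) and 20 of 39 in AOS-14 (51.3%, 34.8 to 67.6), with an adjusted p of 0.0321 in the exact test.

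Other meiosis genes were read the same way. Of 42 listed, 21 had a tested promoter, and their medians were 3.72% for A129-2 and 3.81% for AOS-14, so most were lower than Sycp1, Sycp3 and Hormad1. In the same test 3 of the 21 (14.3%) passed as lower in A129-2 and 1 (4.76%) as higher, beside 30.0% and 0.787% of all promoters. Tdrd9, a helicase of the germline piRNA pathway, was lower, its 5 CpGs averaging 31.6% in A129-2 and 46.4% in AOS-14 (exact test, adjusted p = 0.00048). Psmc3ip, a cofactor of meiotic recombinases, was lower at 3.72% and 4.52%, and Rec114, needed for meiotic DNA breaks, at 2.36% and 2.73%. Ddx4, a germ cell helicase, was higher at 6.79% and 5.43% (exact test, adjusted p = 0.00583). Within 500 bp either side of the start Tdrd9 and Ddx4 passed as before, while Psmc3ip and Rec114 did not (exact test, adjusted p = 0.0592 and 0.0893). The germ cell RNA-binding gene Dazl had 14.8% and 16.0% and did not pass, with mean CpG levels near those of Sycp1 and Hormad1. By summed reads Dazl had 18.2% in A129-2 and 19.4% in AOS-14, above both of these genes in each line. The other axis gene Hormad2 had 3.37% and 4.43%, the recombinase Dmc1 2.68% and 3.12%, and Terb1, which ties telomeres to the nuclear envelope, 2.09% and 2.62%, and none of these passed.

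**Figure D4:**
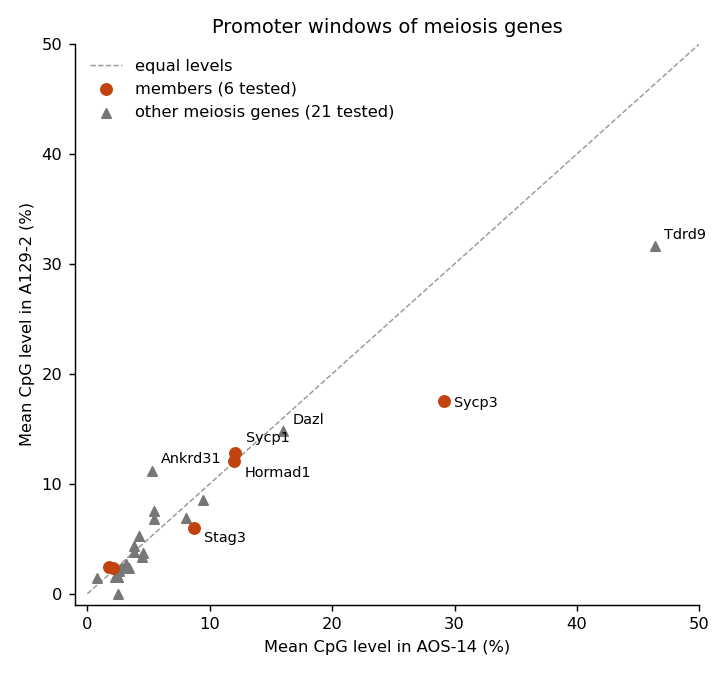
Mean CpG level of the promoter window in A129-2 (vertical axis, percent) against AOS-14 (horizontal axis, percent) for the 6 tested members and 21 other meiosis genes; the dashed line marks equal levels. Most genes lie under 10% in both lines, Sycp1, Hormad1 and Dazl lie near the line at 12% to 16%, and Sycp3 and Tdrd9 lie below it.

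Genes of the machinery that silences germline promoters had promoter levels close to those of promoters in general. The medians of the 8 tested of 11 were 2.83% for A129-2 and 3.49% for AOS-14, against 2.88% and 3.60% over all tested promoters, with 2.76% and 3.45% at E2f6, 4.16% and 7.41% at Mga and 2.95% and 3.40% at Max. By summed reads Mga had 3.87% in A129-2 and 4.27% in AOS-14, and it did not pass (exact test, adjusted p = 0.719). In the same test 2 of the 8 passed as lower in A129-2, Max and the methyltransferase gene Dnmt3b at 2.02% and 2.36%, and 0 were higher, a share near the 30.0% and 0.787% of all promoters.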

How the data were processed

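Per the labels' protocols, about 100 Mb of mouse sequence was captured with a methylation panel, treated with bisulfite and read as pairs of 50 bp, while the series title names RRBS. BSMAP and mm10 were used, per the submitters' processing notes; the sources used here give no version, trimming or duplicate removal. The authors deposited, per CpG, counts of reads and methylated reads, and their ratio as a fraction, which equalled methylated reads over all reads within 0.0005. Positions were raised by 1 and give the plus-strand C.

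CpGs with 10 reads or more in both libraries were compared. Gene positions came from RefSeq (GRCm38.p6), with strand from its promoter table for 27025 genes and from the end richer in CpGs for 4461. Promoters, zones (before the start, 500 bp either side, up to 2 kb inside, body, 2 kb past the end) and CpGs were tested with Fisher's exact test, two-sided, adjusted over all units of a kind. The design named Benjamini-Hochberg adjustment, at least 5 CpGs, and a threshold of 0.05. Members and lists were chosen with earlier results of these data known. Named are all members, their called CpGs, and the other meiosis genes with the largest passing differences. The highest, lowest and nearest CpGs are named for many members but not for all. Further list genes were named after their values were seen. Spans within genes were chosen after their values were seen. The tests were checked on simulated data, drawn independently for each CpG and window. That check could not show the effect of shared reads, PCR copies or variation between libraries. Python 3.11.15, numpy 2.4.6, scipy 1.17.1, pandas 2.3.3, numba 0.67.0 and matplotlib 3.10.9 were used.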

Additional observations from a re-analysis of the deposited data

How the results depend on the processing

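Alternatives varied the reads and CpGs required, the weighting, the window and the size of difference. Promoters lower in A129-2 numbered 1 in place of 2 without CpGs in CCGG (5 members tested, Stag3 no longer among them), with at least 10 points, and with the start of the promoter table, an alternative chosen after seeing the data; at 10 points 0 were higher. Of the other meiosis genes, 1, Tdrd9, was lower with 0.5 kb either side, where Psmc3ip and Rec114 no longer passed. The Sycp3 difference was -7.29 points weighted by reads. Zones higher in A129-2 numbered 2 without CCGG. At 10 points 17 member CpGs were lower and 2 higher. Signs turned at Hormad1 (-0.547 points weighted by reads, -0.590 with 2 kb outside), Smc1b (-0.252 weighted, -1.05 with 5 reads), the Sycp1 downstream edge (-0.787 weighted) and the Sycp1 body (0.689 weighted, 3.26 without CCGG), all uncalled in the main test; the cause was not tested. The other 32 counts stayed within 1.5 times. No paired analysis was possible because each line has 1 library. At 10 reads an interval is wide, so small differences at thinly read CpGs, as in Syce1 about 3 kb inside, were not detectable.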
